A study of Mus musculus with 30 samples.

Results

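Spleen and lymph node were compared within the same animals in asymptomatic Tg26 mice, that is Tg26 mice without lymphoma. The arrays whose description names the no-tumour state were taken, 6 of spleen and 6 of lymph node, and the tissues were paired by the mouse number in the title. They are 12 of the 30 arrays of the series. Affymetrix Mouse Gene ST arrays measured total RNA, with 1 array per tissue and mouse. All Tg26 mice were heterozygous for a pNL4-3 HIV-1 provirus without part of gag-pol, which makes no infectious virus, and were on the FVB/N background. The other mice were 6 Tg26 mice with lymphoma and 3 FVB/N mice without the provirus. Mice were 5 to 12 months old, and the labels used here give no treatment, no age or sex per mouse and no site for the lymph nodes. The lymphoma-prone colony came from crosses of heterozygous mice with skin lesions. Asymptomatic mice 1 to 3 were in batch A and mice 4 to 6 in batch B, as the labels name them, so both tissues of a mouse share a batch. The 6 mice are separate animals, so p-values measure the spread of the tissue difference between mice.

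Spleen filters blood and lymph nodes filter lymph. In spleen, red pulp macrophages take up old red cells and recycle their iron, and marginal zone B cells and macrophages meet antigen from the blood. Lymph nodes receive naive lymphocytes through high endothelial venules and dendritic cells through lymphatic vessels, and both are guided by chemokines of a reticular stroma.

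Lists of node vessel genes separated the tissues, lists of spleen genes did not, and 2 node arrays stood apart. The mean level of 24 high endothelial venule genes was 6.70 to 6.94 on the log2 scale in spleens and 7.36 to 8.27 in nodes. The mean of 26 lymphatic endothelium genes was 6.53 to 6.64 in spleens and 7.03 to 8.18 in nodes. The mean of 26 red pulp macrophage and iron recycling genes was 8.60 to 8.90 in spleens and 7.75 to 9.75 in nodes. That of 10 splenic organ identity genes was 6.24 to 6.52 and 6.22 to 7.16. The mean of 29 erythroid genes was 7.52 to 8.36 in spleens, 6.61 to 6.87 in the nodes of mice 1 to 5 and 8.94 in that of mouse 6. Tlx1 and Tcf21, transcription factors of the splenic mesenchyme, did not mark the spleens. Tlx1 had log2 levels of 6.18 to 6.42 in the 6 spleens and 6.04 to 6.42 in the nodes of mice 1 to 5. Tcf21 had levels of 5.58 to 5.87 in spleens and 5.24 to 5.91 in those nodes. The array labelled lymph node of mouse 6 had 8.21 for Tlx1 and 8.58 for Tcf21, above every other array of the 12. It also had the highest node level of the red cell gene Slc4a1 (11.58), the iron exporter gene Slc40a1 (11.32), the platelet chemokine gene Ppbp (11.10) and the exocrine pancreas list (12.46). Its level of Cd3g, a T cell receptor complex chain, was the lowest of the 12 at 9.43. The array labelled lymph node of mouse 1 was low in stroma and macrophage genes, with Cxcl13 at 10.60 against 11.92 to 12.23 in the other nodes and Siglec1 at 8.01 against 9.51 to 11.02. It had the highest Cd3e level, 12.34. Both arrays were kept under their labels, and results that rest on them are given with and without them.

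**Figure D1:**
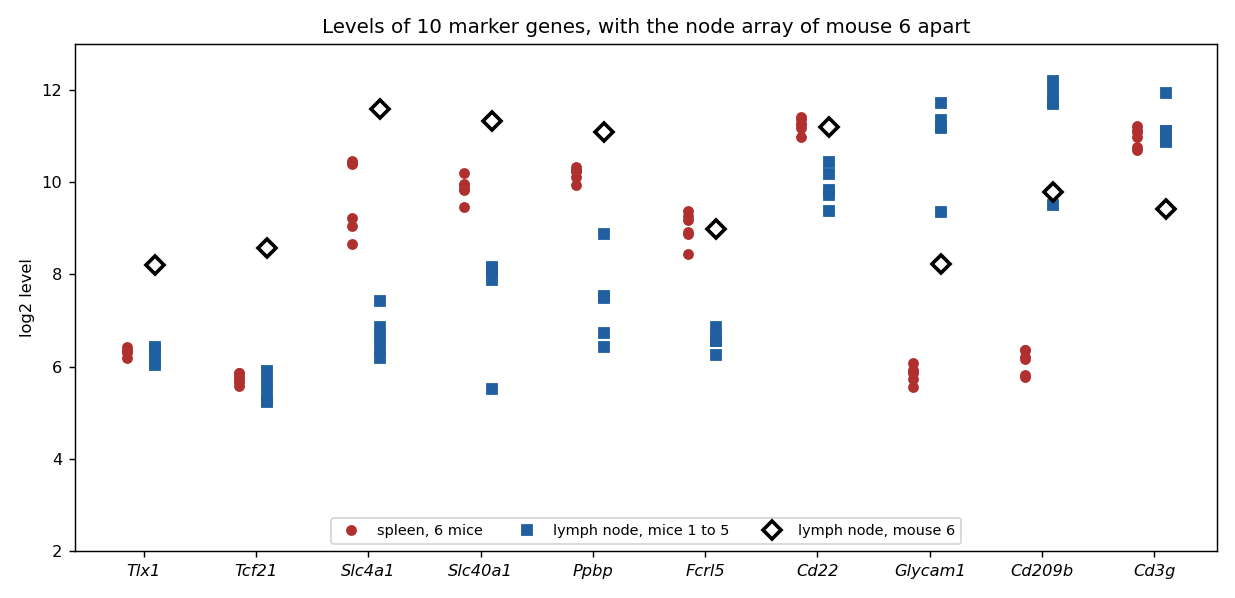
Log2 level (vertical axis) of 10 marker genes on each array of asymptomatic Tg26 mice, with the 6 spleens, the nodes of mice 1 to 5 and, as a diamond, the array labelled lymph node of mouse 6. The diamond lies above all other arrays for Tlx1, Tcf21, Slc4a1, Slc40a1 and Ppbp, and is the lowest of the 12 for Cd3g.

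**Figure D2:**
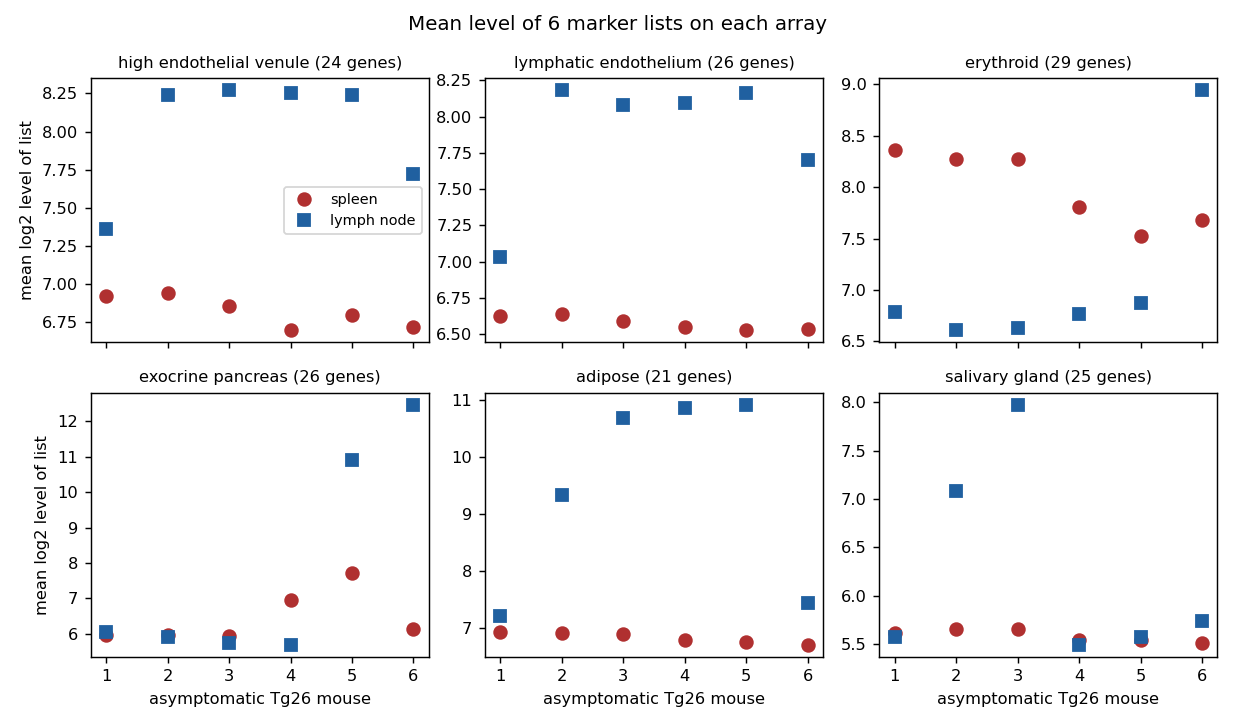
Mean log2 level of the genes of 6 marker lists (vertical axis) against mouse number for spleen (red circles) and lymph node (blue squares). The venule and lymphatic lists are higher in every node than in any spleen, the erythroid list is highest in the node array of mouse 6, and the pancreas, adipose and salivary lists are high in some nodes and not in others.

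Neutrophil, B cell and antigen presentation genes were on the spleen side, and stroma, vessel and migratory dendritic cell genes on the node side. Of 19938 genes, 3080 (15.4%) had an adjusted p under 0.05 in the paired comparison (limma). Of these, 1379 were higher in spleen (6.92% of all genes) and 1701 higher in node (8.53%). A difference of at least 1 on the log2 scale was met by 915 of the called genes (4.59%), 147 on the spleen side (0.737%) and 768 on the node side (3.85%). The levels of the tissues did not overlap for 1183 genes (5.93%), 349 higher in spleen (1.75%) and 834 higher in node (4.18%). Of the called genes, 1156 (5.8% of all genes) were higher in spleen and 1317 (6.61%) higher in node in each of the 6 mice. The median difference, spleen minus node, over all genes was 0.08. With each array centred on its median it was 0.21, a shift of 0.13, and 5810 genes were called, of which 73.3% were higher in spleen against 44.8% without centring. Without mice 1 and 6, 5236 genes were called, 2610 higher in spleen and 2626 higher in node. The count was 4402, 1671, 1543, 1867, 1460 and 3246 without mice 1, 2, 3, 4, 5 and 6. Without mouse 1, 2191 genes were higher in spleen and 2211 higher in node, and without mouse 6 the counts were 1451 and 1795. The list counts given below without a mouse are to be read beside these totals.

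Neutrophil genes included the largest differences on the spleen side. Of 30 neutrophil granule and receptor genes, 25 were higher in spleen and 0 higher in node (limma), with a median difference of 1.26 on the log2 scale against 0.08 over all genes. S100a8, a subunit of calprotectin, had log2 levels of 8.83 to 9.92 (median 9.55) in spleens and 5.26 to 8.03 (median 5.66) in nodes. The groups did not overlap, and the difference was 3.27 (SE 0.34, adjusted p = 0.00107). The lower levels of many genes, such as S100a8 in most nodes, lay under the array medians of 6.67 to 6.89. The background of the arrays was not measured here, so such differences are not given as fold ratios. Ngp, a granule protein of immature neutrophils, had log2 levels of 9.76 to 11.03 (median 10.84) in spleens and 5.06 to 8.54 (median 5.68) in nodes. Its spleens were all above its nodes, with a difference of 4.32 (SE 0.60, adjusted p = 0.00258). Within batch A the Ngp difference was 5.86 and within batch B 2.77, and that of the surface marker Ly6g was 3.45 and 1.68. S100a9, the other calprotectin subunit, was higher in spleen by 2.96, the chitinase-like Chil3 by 3.04 and the resistin-like Retnlg by 2.50 (at most SE 0.29 and adjusted p = 0.000932). Where several genes share a bracket, it holds the largest standard error and the largest adjusted p among them. The granule genes Lcn2, Camp and Mmp8 were higher by 3.18, 1.77 and 2.57 (at most SE 0.44 and adjusted p = 0.00314). Ltf, the lactoferrin gene, which neutrophils and salivary gland both express, was higher in spleen by 3.03 (SE 0.33, adjusted p = 0.00113). Within single mice the list median ran from 0.60 in mouse 6 to 1.79 in mouse 1. In RNA of mixed cells, more cells of a type and more RNA per cell cannot be told apart.

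**Figure D3:**
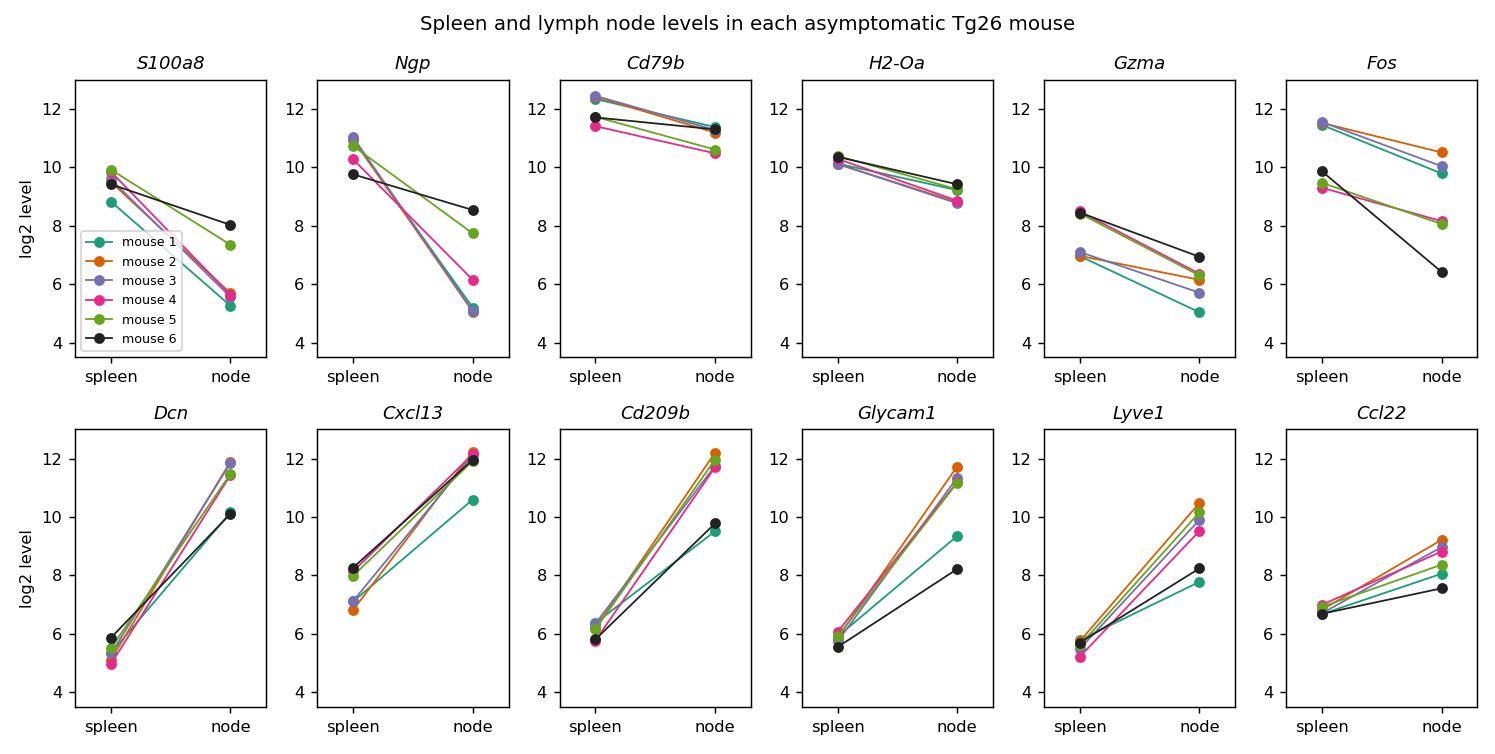
Log2 level (vertical axis) of 12 genes in spleen and lymph node, with a line joining the tissues of each of the 6 mice. The upper genes are higher in spleen in every mouse and the lower genes higher in node in every mouse, and the node array of mouse 6 has the highest node level of Ngp (8.54) and the lowest of Glycam1 (8.22).

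Other myeloid and granulocyte genes were split between the tissues. Il1b, a cytokine of activated myeloid cells, had log2 levels of 9.52 to 10.05 in spleens and 6.64 to 8.10 in nodes. It was higher in all 6 spleens than in any node, by 2.51 (SE 0.20, adjusted p = 0.000601). Serpinb10, a protease inhibitor of blood-forming cells, was higher in spleen by 3.02 (SE 0.33, adjusted p = 0.00112) and the innate receptor gene Trem1 by 2.03 (SE 0.22, adjusted p = 0.00111). Of 20 monocyte genes, 8 were higher in spleen and 3 in node, with a median of 0.30. Without mouse 1 the counts were 5 and 5, and without mice 2, 3, 4 and 5 the spleen count was 4, 4, 3 and 3. The Fc receptor gene Fcgr4 was higher in spleen by 0.97 (SE 0.13, adjusted p = 0.00258), and Lyz1, a lysozyme gene with a close copy in Lyz2, was higher in node by a difference of -2.55 (SE 0.25, adjusted p = 0.000954).

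Mast cell and basophil genes were called on both sides, with 4 of 14 higher in spleen and 4 in node, or 2 and 2 without mouse 3 or 5 and 3 and 2 without mouse 2. Without mouse 1, 2 were higher in node. Mcpt8, a basophil protease gene, had log2 levels of 6.07 to 7.04 (median 6.78) in spleens and 5.21 to 5.57 (median 5.32) in nodes. The tissues did not overlap, and the difference was 1.32 (SE 0.13, adjusted p = 0.000931). Hdc, the histamine-forming enzyme gene of mast cells and basophils, was also higher in spleen, by 1.12 (SE 0.14, adjusted p = 0.00164). Mcpt4, a protease gene of connective tissue mast cells, had log2 levels of 5.37 to 6.74 (median 5.93) in spleens and 7.20 to 8.81 (median 8.20) in nodes, again without overlap. It went the other way, by -2.11 (SE 0.23, adjusted p = 0.00111), as did the mast cell carboxypeptidase gene Cpa3, by -1.85 (SE 0.21, adjusted p = 0.00132).

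B cell genes were higher in spleen. Of 24 follicular B lineage genes, 22 were higher in spleen and 0 higher in node, with a median difference of 0.98. Cd79b, a signalling chain of the B cell receptor, had log2 levels of 11.41 to 12.45 (median 12.03) in spleens and 10.48 to 11.38 (median 11.24) in nodes. The lowest spleen lay just above the highest node, and the difference was 0.97 (SE 0.12, adjusted p = 0.00166). Btk, the kinase downstream of that receptor, had log2 levels of 9.85 to 10.11 (median 9.93) in spleens and 8.51 to 9.69 (median 8.73) in nodes. It did not overlap either and was higher in spleen by 1.07 (SE 0.13, adjusted p = 0.0016). Ms4a1, which encodes CD20, Cd22, an inhibitory receptor, and Fcmr, the receptor of IgM, were higher by 1.02, 1.13 and 1.10 (at most SE 0.19 and adjusted p = 0.00609). The mean level of the list was 9.62 to 9.93 in the nodes of mice 1 to 5 and 10.62 in that of mouse 6. The list's median difference was 0.20 in mouse 6 and 0.92 to 1.34 in the others, and 23 of 24 genes were called without mouse 6. Without mice 1, 2, 3, 4 and 5 the count was 22, 18, 20, 22 and 20. Within batch A 21 were higher in spleen and within batch B 4, where 338 and 201 of all genes were.

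Genes of marginal zone and B-1 B cells, which respond early to blood-borne antigen, were on the same side. Of 25, 15 were higher in spleen and 0 in node, with a median of 0.57. The count was 8, 7 and 7 without mice 2, 3 and 5. Plac8, a gene of marginal zone B cells and myeloid cells, had log2 levels of 9.95 to 10.85 (median 10.38) in spleens and 8.39 to 10.11 (median 8.74) in nodes. Of the nodes, mouse 6 at 10.11 alone reached the spleens, and the difference was 1.53 (SE 0.20, adjusted p = 0.00221). Fcrl5, a receptor of marginal zone B cells, was higher in spleen by 2.03 (SE 0.33, adjusted p = 0.00493), with 8.99 in the node of mouse 6 and 6.26 to 6.85 in the other nodes. Dtx1, a regulator of Notch signalling, was higher by 1.08 (SE 0.16, adjusted p = 0.00375). Cr2, the complement receptor CD21, was higher by 1.26 (SE 0.25, adjusted p = 0.0104). Tnfrsf13b, which encodes the receptor TACI, was higher by 1.15 (SE 0.12, adjusted p = 0.00112). Cxcr5, the receptor that draws B cells to follicles, was higher in spleen by 1.41 (SE 0.20, adjusted p = 0.00309), while its ligand gene Cxcl13 was higher in node.

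MHC class II genes, which present peptides to CD4 T cells, were also higher in spleen. Of 14 genes of the class II pathway, 10 were higher in spleen and 0 in node, with a median of 0.59, and the count was 6 without mouse 2, 3 or 5. The start regions of 4 class II genes are shown with the Y box, a motif of class II promoters, because most genes of the list were called on the same side. The sequences are from RefSeq, mouse build GRCm38.p6, and give the 150 bases before the gene start, 5′ to 3′ on the strand of the gene. They are of the reference genome and were not read from these mice, whose FVB/N background may differ from it. Capitals mark the 8-base Y box letters CTGATTGG. H2-Oa is on the plus strand (chr17:34092229-34092378), H2-Aa on the minus strand (chr17:34287824-34287973), H2-Eb1 on the plus strand (chr17:34305717-34305866) and H2-Eb2 on the plus strand (chr17:34325525-34325674).
H2-Oa: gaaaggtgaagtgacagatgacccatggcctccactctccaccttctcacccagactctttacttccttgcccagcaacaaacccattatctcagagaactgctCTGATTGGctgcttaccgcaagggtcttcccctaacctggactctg
H2-Aa: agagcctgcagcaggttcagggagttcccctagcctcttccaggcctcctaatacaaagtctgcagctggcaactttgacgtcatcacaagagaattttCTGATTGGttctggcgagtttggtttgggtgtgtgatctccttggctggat
H2-Eb1: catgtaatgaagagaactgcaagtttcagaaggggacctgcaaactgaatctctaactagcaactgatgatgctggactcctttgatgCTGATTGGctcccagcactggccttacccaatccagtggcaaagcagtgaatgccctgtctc
H2-Eb2: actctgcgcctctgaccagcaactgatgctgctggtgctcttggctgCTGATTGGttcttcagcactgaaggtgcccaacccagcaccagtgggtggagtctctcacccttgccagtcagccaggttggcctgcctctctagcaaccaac
The match starts at position -46 of H2-Oa, -51 of H2-Aa, -62 of H2-Eb1 and -103 of H2-Eb2, counted from the gene start. Of 10 class II genes measured, 6 had a sequence in the table, and 4 of these held the letters in the 250 bases before the start on either strand. Over all 27025 genes with a sequence, 1099 (4.07%) held them in a window of that length. The letters were not in these windows of H2-DMa and H2-Ob. H2-DMa had 2 entries in the table, and only the first was searched.

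H2-Oa, the alpha chain of the peptide editor DO, had log2 levels of 10.11 to 10.39 (median 10.21) in spleens and 8.77 to 9.42 (median 9.04) in nodes. It did not overlap between tissues and was higher in spleen by 1.18 (SE 0.10, adjusted p = 0.000648). H2-Aa, the alpha chain of the presenting molecule I-A, was higher by 0.63 (SE 0.12, adjusted p = 0.00975). H2-Eb2 was higher by 0.38 (SE 0.09, adjusted p = 0.0221), whereas H2-Eb1, the beta chain of I-E, had a difference of 0.46 (SE 0.22, adjusted p = 0.182). H2-DMa, part of the loading factor DM, was higher by 0.77 (SE 0.09, adjusted p = 0.00145) and Ciita, the transactivator of these genes, by 0.76 (SE 0.16, adjusted p = 0.0126). Cd74, the invariant chain, had a difference of 0.26 (SE 0.09, adjusted p = 0.0942). H2-Ob, the beta chain of DO, was higher by 0.71 (SE 0.16, adjusted p = 0.0188). Of the 4 genes with the Y box letters 1 did not pass, and both genes without them in the window searched, H2-DMa and H2-Ob, passed.

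Natural killer cell genes and immediate early genes were also higher in spleen. Of 30 NK and cytotoxic genes, 17 were higher in spleen and 0 in node, with a median of 0.46, and the count was 11, 11 and 10 without mice 2, 3 and 5. Gzma, a granule protease, had log2 levels of 6.96 to 8.49 (median 7.76) in spleens and 5.04 to 6.94 (median 6.23) in nodes. The tissues did not overlap and differed by 1.65 (SE 0.17, adjusted p = 0.00107). The NK receptor gene Ncr1 was higher by 0.95 and the transcription factor gene Tbx21 by 0.80 (at most SE 0.10 and adjusted p = 0.00132). Of 20 immediate early genes, which cells switch on within minutes of a stimulus or of handling, 13 were higher in spleen and 0 in node, with a median of 0.62. Fos had log2 levels of 9.30 to 11.55 (median 10.65) in spleens and 6.42 to 10.51 (median 8.98) in nodes. Its groups overlapped, and the difference was 1.69 (SE 0.28, adjusted p = 0.0055). Fosb was higher by 1.56, Junb by 1.07 and Ier2 by 0.78 (at most SE 0.19 and adjusted p = 0.00192). The mean level of the immediate early list was 9.79 to 9.82 in batch A spleens and 8.50 to 8.84 in batch B spleens. The median difference between tissues was 0.74 within batch A and 0.46 within batch B.

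On the node side, the connective tissue framework stood out. Of 39 extracellular matrix genes, 34 were higher in node and 0 in spleen, with a median difference of -1.22, spleen minus node. Dcn, the small proteoglycan decorin, had log2 levels of 4.97 to 5.87 (median 5.34) in spleens and 10.11 to 11.90 (median 11.46) in nodes. Every node was above every spleen, and the difference was -5.80 (SE 0.32, adjusted p = 0.000194). The spleen levels of Dcn lay under the array medians, where the size of a difference may be understated. Sparc, a collagen-binding protein, differed by -4.01 and Bgn, biglycan, by -3.69 (at most SE 0.30 and adjusted p = 0.00063). Col1a1, a chain of type I collagen, differed by -1.39 (SE 0.10, adjusted p = 0.000511). Dpt and Fstl1, secreted by fibroblasts, differed by -3.96 and -2.87 (at most SE 0.38 and adjusted p = 0.000931). The list mean was 6.35 to 6.39 in the spleens, and 7.18 in the node of mouse 1 against 7.66 to 8.18 in the others. Adipose transcripts were high in the nodes of mice 2 to 5, and their part in these differences was not tested. The fit with neighbouring tissue lists given further on cannot tell that part from the tissue difference.

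Genes of the lymphoid stroma that organises T and B cell zones were higher in node. Of 27 reticular and follicular stroma genes, 20 were higher in node, and 2, Cr2 and Fcer2a, which B cells also express, were higher in spleen, with a median of -1.50. Cxcl13, the B cell chemokine of follicles, had log2 levels of 6.82 to 8.27 (median 7.56) in spleens and 10.60 to 12.23 (median 12.04) in nodes. The groups lay apart, at a difference of -4.26 (SE 0.25, adjusted p = 0.000194). Ccl19, which draws T cells and dendritic cells through the receptor CCR7, had log2 levels of 6.61 to 7.06 (median 6.90) in spleens and 8.42 to 11.59 (median 10.78) in nodes. It did not overlap and differed by -3.61 (SE 0.38, adjusted p = 0.00108). Il7, a survival factor for naive T cells, differed by -1.50 (SE 0.19, adjusted p = 0.00182). Mfge8 and Clu, markers of follicular dendritic cells, differed by -3.18 and -3.10 (at most SE 0.24 and adjusted p = 0.000566). How far the share of stroma in the RNA of either tissue moves these values was not tested.

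Vessel genes were higher in node for each of the 3 vessel lists. Of 27 pan-endothelial genes, 24 were higher in node and 1, S1pr1, which lymphocytes also express, in spleen, with a median of -1.61. Cdh5, the endothelial cadherin, had log2 levels of 6.56 to 6.93 (median 6.69) in spleens and 8.24 to 10.36 (median 9.93) in nodes. It separated the tissues without overlap, at -2.91 (SE 0.24, adjusted p = 0.000648). Of 26 lymphatic endothelium genes, 20 were higher in node and 0 in spleen, with a median of -1.15. Lyve1, a hyaluronan receptor of lymphatic vessels, had log2 levels of 5.22 to 5.79 (median 5.65) in spleens and 7.78 to 10.48 (median 9.71) in nodes. The groups were apart, at -3.75 (SE 0.37, adjusted p = 0.000947). Prox1, the transcription factor that specifies lymphatic vessels, and Flt4, their growth factor receptor, differed by -1.83 and -1.90 (at most SE 0.29 and adjusted p = 0.00441).

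Of 24 high endothelial venule genes, 13 were higher in node and 1, Rasgrp3, in spleen, with a median of -0.67. Glycam1, a ligand of L-selectin made by these venules, had log2 levels of 5.55 to 6.07 (median 5.89) in spleens and 8.22 to 11.73 (median 11.18) in nodes. Both node arrays that stood apart were the lowest nodes, at 8.22 in mouse 6 and 9.35 in mouse 1, yet above every spleen. The difference was -4.66 (SE 0.40, adjusted p = 0.000673). Chst4, a sulfotransferase that modifies these ligands, had a difference of -0.77 (SE 0.23, adjusted p = 0.0528) over all mice and -1.18 (adjusted p = 0.00128) without mice 1 and 6. Of 20 smooth muscle and contractile genes, 10 were higher in node and 0 in spleen. Rgs5, a pericyte marker, differed by -3.59 (SE 0.45, adjusted p = 0.00168) and Des, desmin, by -2.36 (SE 0.27, adjusted p = 0.00132).

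Macrophage receptors that mark the marginal zone in spleen and the sinuses in node were higher in node. Of 16, 10 were higher in node and 2, Cd209a and Cd300e, in spleen, with a median of -1.30. Cd209b, the SIGN-R1 lectin, had log2 levels of 5.77 to 6.37 (median 6.18) in spleens and 9.51 to 12.20 (median 11.72) in nodes. No spleen came near the nodes, and the difference was -5.04 (SE 0.37, adjusted p = 0.000566). Siglec1, the sialoadhesin of metallophilic and subcapsular macrophages, had log2 levels of 6.25 to 6.50 (median 6.38) in spleens and 8.01 to 11.02 (median 10.46) in nodes. It did not overlap and differed by -3.63 (SE 0.34, adjusted p = 0.000885). Marco, a scavenger receptor of the marginal zone, differed by -2.90 (SE 0.32, adjusted p = 0.00113), though its node level in mouse 1 (7.28) fell within the spleens' range of 6.31 to 7.35. Cd209a, a lectin of monocyte-derived and dendritic cells, was higher in spleen by 1.20 (SE 0.17, adjusted p = 0.0027). The list median was 0.16 in mouse 1 and -2.50 to -1.33 in the other 5 mice.

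Complement genes, many of them expressed by stroma and macrophages, leaned the same way. Of 20, 7 were higher in node and 1, the receptor gene Cr2, in spleen, with a median of -0.81. C1s1, a protease of the classical pathway, had log2 levels of 3.74 to 4.58 (median 4.18) in spleens and 5.44 to 9.40 (median 9.20) in nodes. The node of mouse 1, at 5.44, lay far below the other nodes (8.16 to 9.40) but above the spleens. C1s1 differed by -4.30 (SE 0.45, adjusted p = 0.00107), the inhibitor gene Serping1 by -3.97 and factor B, Cfb, by -3.25 (at most SE 0.33 and adjusted p = 0.000954). The chains of C1q, made by macrophages, had differences of -0.54 for C1qa, -0.94 for C1qb and -0.86 for C1qc that did not pass (adjusted p of 0.201, 0.0523 and 0.123). All 3 passed without mouse 1, at -0.86, -1.29 and -1.29, and 12 complement genes were then higher in node.

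Dendritic cell genes depended on the subset. Of 23 genes of migratory dendritic cells, which arrive through lymph, 13 were higher in node and 0 in spleen, with a median of -0.61. Ccl22, one of their chemokines, had log2 levels of 6.68 to 7.0 (median 6.77) in spleens and 7.56 to 9.22 (median 8.59) in nodes. The tissues were apart, at -1.69 (SE 0.19, adjusted p = 0.00125). Fscn1, which shapes their dendrites, and Socs2, a signalling suppressor, differed by -2.15 and -1.62 (at most SE 0.27 and adjusted p = 0.00261). Ccr7, the receptor on which these cells and naive T cells travel, had a difference of 0.30 (SE 0.17, adjusted p = 0.252). Of 24 resident and plasmacytoid dendritic cell genes, 4 were higher in spleen and 5 in node, with a median of -0.04. Clec4a4, the DCIR2 lectin of splenic dendritic cells, was higher in spleen by 1.77 (SE 0.23, adjusted p = 0.00212), at 5.81 to 6.62 in spleens, 3.69 to 4.35 in the nodes of mice 1 to 5 and 5.75 in that of mouse 6. Mgl2, a lectin of dermal dendritic cells, differed by -1.27 (SE 0.24, adjusted p = 0.00981). Of the resident genes, 9 were higher in node without mouse 1 and 2 without mouse 2, 3, 4 or 5, and the spleen count was 2 without mouse 2, 3 or 5.

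Of 48 chemokine and receptor genes, 11 were higher in spleen and 14 in node, with a median of -0.13. Without mouse 2, 3 or 5, 7 were higher in spleen. Ccl3, an inflammatory chemokine, had log2 levels of 8.22 to 10.48 (median 9.27) in spleens and 6.40 to 8.21 (median 7.17) in nodes. The highest node was just below the lowest spleen, and the difference was 2.16 (SE 0.23, adjusted p = 0.00111). Its receptor gene Ccr1 was higher in spleen by 1.65 (SE 0.17, adjusted p = 0.00102). Ccl8, a chemokine of macrophages, and Cxcl10, a chemokine of the interferon response, differed by -3.54 and -1.41 (at most SE 0.56 and adjusted p = 0.00455). Of 26 interferon response genes, 1 was higher in spleen and 5 in node (23.1% against 15.4% of all genes), with a median of -0.14. The node count was 3, 3 and 2 without mice 2, 3 and 5. Besides Cxcl10, the 5 node genes included Usp18, a brake on interferon signalling, at -0.73 (SE 0.12, adjusted p = 0.00589).

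T cell genes mostly gave no call. Of 23 T lineage genes, 1 was higher in spleen (Cd2) and 1 in node (Icos), which is 8.7% against 15.4% of all genes, with a median of 0.14. Cd3e, a CD3 subunit, had log2 levels of 10.92 to 11.59 (median 11.33) in spleens and 10.39 to 12.34 (median 11.12) in nodes, with a difference of 0.13 (SE 0.18, adjusted p = 0.652). The nodes spanned a wider range than the spleens. Over the list, the mean level was 10.37 in the node of mouse 1 and 8.57 in that of mouse 6. It was 9.36 to 9.54 in the other nodes and 9.37 to 9.67 in spleens. Without mice 1 and 6, 1 T lineage gene was higher in spleen and 1 in node, with a median of 0.16. The coreceptor genes Cd4 and Cd8a had differences of -0.26 (SE 0.18, adjusted p = 0.346) and 0.19 (SE 0.15, adjusted p = 0.416). The calls of Cd2, at 0.53, and Icos, at -0.71, were lost without mouse 2 or 3 (adjusted p of 0.072 and 0.0771 for Cd2, 0.0523 and 0.0547 for Icos), and that of Cd2 also without mouse 4 or 5. With surrogate variables in place of the mouse, over 30 arrays, 15 of the 23 genes were higher in node and 0 in spleen, with a median of -1.04.

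Of 19 genes of naive T cells and node entry, 4 were higher in spleen and 1 in node (26.3% against 15.4% of all genes). The spleen count was 2 without mouse 2, 3 or 5. Klf2 and S1pr1, which control exit from lymphoid organs, were higher in spleen by 0.69 and 0.57 (at most SE 0.11 and adjusted p = 0.0092). Igfbp4, a growth factor binding protein, was higher in node by a difference of -1.24 (SE 0.15, adjusted p = 0.00166). Of 25 regulatory and follicular helper T cell genes, 2 were higher in spleen and 4 in node (24.0%). The node count was 7 without mouse 6 and 2 without mouse 2, 3 or 5. Foxp3, the factor of regulatory T cells, had a difference of -0.16 (SE 0.15, adjusted p = 0.487).

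Germinal centre genes were called on both sides, with more on the node side over all 6 mice. Of 18, 4 were higher in node and 1 in spleen, which is 27.8% against 15.4% of all genes, with a median of -0.22. Gcsam, a signalling adaptor of germinal centre B cells, differed by -0.70 and Basp1, a membrane-bound signalling protein, by -0.67 (at most SE 0.11 and adjusted p = 0.00472). Without mouse 1, 4 germinal centre genes were higher in spleen and 5 in node, and without mouse 4 there were 2 and 3. Without mouse 2 the counts were 0 and 4, and without mouse 5 they were 0 and 3. With mice 2 and 3 left out, or mice 4 and 5, 0 were called on either side. The called share of 23 plasma cell and secretory genes was under the 15.4% of all genes. Of these 23, 3 were higher in spleen and 0 in node. These were Tnfrsf13b, Mzb1 and Irf4, a factor of activated B cells and plasma cells that was higher by 0.80 (SE 0.11, adjusted p = 0.00275). Mzb1, a chaperone of antibody secretion, was called at 0.95 (SE 0.24, adjusted p = 0.0305) but not without mouse 1, 3, 4 or 5 (adjusted p up to 0.101). Jchain, which joins IgA and IgM polymers, had log2 levels of 10.18 to 10.83 (median 10.64) in spleens and 7.31 to 11.68 (median 9.86) in nodes. The nodes lay on both sides of the spleens, with a difference of 0.93 (SE 0.53, adjusted p = 0.264). Of 18 haematopoietic progenitor genes, 2 were higher in spleen and 3 in node (27.8% against 15.4% of all genes). Of 10 genes of splenic organ identity, 0 were higher in spleen and 1 in node, a share under 15.4%. This gene was Hoxa5, a homeobox gene, at a difference of -0.84 (SE 0.11, adjusted p = 0.00236). Of 37 proliferation genes, 2 were higher in spleen and 1 in node (8.11%), with a median of 0.04. Mki67, the Ki-67 gene, had a difference of -0.28 (SE 0.34, adjusted p = 0.613). Without mouse 6, 5 proliferation genes were higher in spleen.

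Red cell genes turned on 1 node array. Of 29 erythroid genes, 3 were higher in spleen over all 6 mice (10.3% against 15.4% of all genes), with a median of 0.65. Without mouse 6, 22 were higher in spleen. The count was 2 without mouse 1, 0 without mouse 2, 3 or 4 and 1 without mouse 5, and 0 were higher in node in each of these limma fits. Slc4a1, the anion exchanger of red cells, had log2 levels of 8.67 to 10.46 in spleens, 6.18 to 7.43 in the nodes of mice 1 to 5 and 11.58 in the node array of mouse 6. Its difference was 2.19 (SE 0.77, adjusted p = 0.0904) over 6 mice and 3.10 (adjusted p = 0.00274) without mouse 6. Car1, an erythroid carbonic anhydrase, differed by 3.62 (SE 0.81, adjusted p = 0.0183), with 5.56 in batch A and 1.68 in batch B. Its call was lost without mouse 2, 3 or 4 (adjusted p up to 0.0652). Within single mice the erythroid median was 0.60 to 1.49 in mice 1 to 5 and -1.13 in mouse 6.

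Genes of the platelet list were called on both sides. Of 21 megakaryocyte and platelet genes, 3 were higher in each tissue (28.6% called against 15.4% of all genes). The 3 node genes were F2r, Mmrn1 and Vwf, and Mmrn1 is also in the lymphatic list and Vwf in the pan-endothelial list. The spleen count was 6 without mouse 6, 0 without mouse 2 or 3 and 1 without mouse 4 or 5. Ppbp, the platelet chemokine gene, had log2 levels of 9.94 to 10.32 in spleens, 6.43 to 8.88 in the nodes of mice 1 to 5 and 11.10 in that of mouse 6. It was higher in spleen by 2.16 (SE 0.58, adjusted p = 0.0361), or by 2.83 without mouse 6 (adjusted p = 0.00154), and the call was lost without any one of mice 1 to 5 (adjusted p up to 0.107). F2r, the thrombin receptor, which endothelium also expresses, was higher in node by a difference of -0.72 (SE 0.08, adjusted p = 0.00113).

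Red pulp macrophage and iron recycling genes were called on both sides. Of 26, 3 were higher in spleen (Blvrb, Treml4 and Hmox1) and 2 in node (Cp and Stab2), a share of 19.2% near the 15.4% of all genes, with a median of -0.22. Spic, the factor that specifies red pulp macrophages, had log2 levels of 8.90 to 9.44 (median 9.10) in spleens and 7.12 to 10.33 (median 8.75) in nodes, a difference of 0.39 (SE 0.33, adjusted p = 0.451). Slc40a1, the iron exporter ferroportin, had a difference of 1.70 (SE 0.61, adjusted p = 0.0955), and 2.41 without mouse 6 (adjusted p = 0.00339). Hmox1, heme oxygenase, was higher in spleen by 1.45 (SE 0.42, adjusted p = 0.0481), with 11.25 in the node array of mouse 6 against 10.09 to 10.54 in the spleens. Without mouse 6 its difference was 1.97 (adjusted p = 0.000505), and it did not pass without any one of mice 1 to 5 (adjusted p up to 0.136). Cp, ceruloplasmin, was higher in node by a difference of -3.68 (SE 0.35, adjusted p = 0.000931). Without mouse 1, 1 of the genes was higher in spleen and 10 in node, without mouse 6 the counts were 6 and 2, and without mouse 2, 3, 4 or 5 they were 0 and 2. The list mean was 7.75 in the node of mouse 1 and 9.17 to 9.75 in the other nodes, against 8.60 to 8.90 in spleens.

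**Figure D4:**
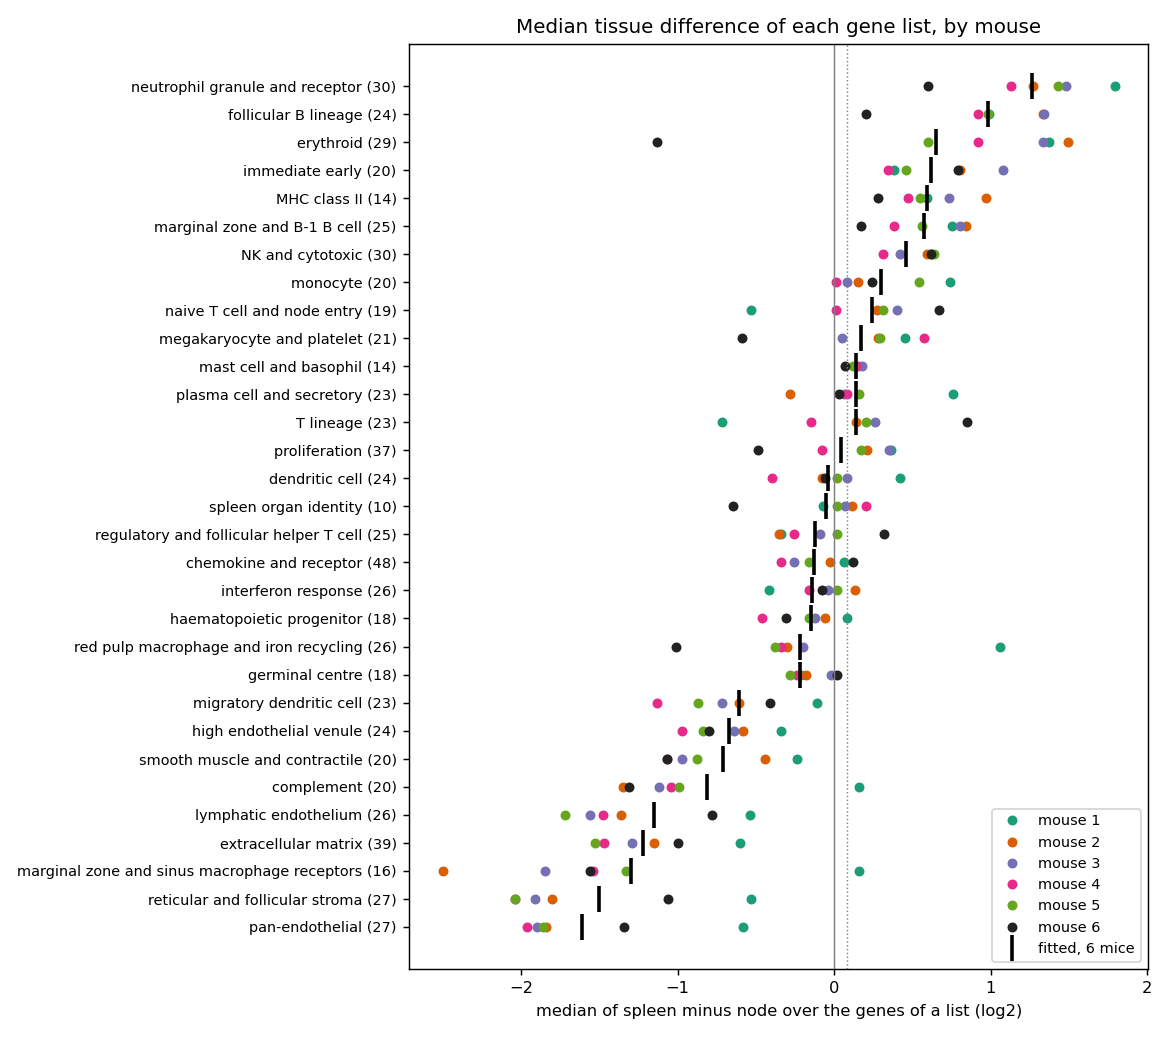
Median over the genes of each list of spleen minus node (horizontal axis, log2) in each of the 6 mice (points), with the median of the fitted differences (bar), a solid line at 0 and a dotted line at the median of all genes (0.08). Neutrophil and B lineage lists lie right of 0 in all 6 mice, vessel, matrix and stroma lists left of 0 in all 6, and mouse 6 is alone left of 0 for the erythroid list.

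Transcripts of tissues that lie beside lymph nodes were kept apart. The mean of 21 adipose genes was 6.71 to 6.94 on the log2 scale in spleens, 7.21 and 7.44 in the nodes of mice 1 and 6, and 9.33 to 10.91 in those of mice 2 to 5. Of these genes, 15 were higher in node and 0 in spleen, but 9, 7, 7 and 6 were higher in node without mice 2, 3, 4 and 5. Car3, a carbonic anhydrase of fat, had log2 levels of 6.21 to 6.32 (median 6.26) in spleens and 8.88 to 13.11 (median 12.93) in nodes, a difference of -5.48 (SE 0.61, adjusted p = 0.00119). The mean of 26 exocrine pancreas genes was 10.91 and 12.46 in the nodes of mice 5 and 6 and 5.69 to 6.06 in the other nodes. It was 6.95 and 7.71 in the spleens of mice 4 and 5 and 5.94 to 6.15 in the other spleens, and 0 of 26 genes passed (limma). The mean of 25 salivary gland genes was 7.08 and 7.97 in the nodes of mice 2 and 3 and 5.49 to 5.74 in the other nodes. Amy1, the salivary amylase, was called at -4.61 (SE 0.85, adjusted p = 0.00836), and its probe set may also read the pancreatic amylases. The mean of 20 skeletal muscle genes was 8.51 and 7.47 in the nodes of mice 3 and 4 and 6.11 to 6.68 in the other nodes, and 0 passed. Of 22 epithelial genes 1, Ehf, was higher in node, but not without mouse 2, 3, 4 or 5 (adjusted p up to 0.0824).

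A fit of all 30 arrays with the mouse as a random block called 3978 genes, a setting chosen after seeing the data. With the levels of the salivary, pancreas and adipose lists added to it, 213 genes were called, 87 higher in spleen and 126 higher in node, and 2660 of the 3080 genes kept their sign. The adipose mean was 6.71 to 6.94 in asymptomatic spleens and 7.21 to 10.91 in asymptomatic nodes. As it follows the tissue, this fit can also take up the tissue difference itself, and it cannot tell fat apart from tissue. With these covariates 10 of 30 neutrophil genes and 6 of 24 B lineage genes were higher in spleen, against 22 and 19 without them. Of the marginal zone and B-1 genes 2 were higher in spleen, against 12, and of the NK and cytotoxic genes 1 was, against 14. Of the immediate early genes 1 was higher, against 11, and of the class II genes 0 were, against 6. On the node side were 8 of 27 pan-endothelial, 8 of 27 stroma, 5 of 39 matrix and 4 of 16 macrophage receptor genes, against 24, 21, 33 and 10 without the covariates. Lymphatic, venule and migratory dendritic cell genes had 4, 3 and 3 higher in node, against 20, 15 and 12. Of the complement genes 2 were higher in node, and the list median was 0.20. With 6 surrogate variables in place of the mouse, 1120 genes were called.

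The tissue difference was then set against that of FVB/N mice, which lack the provirus. By limma, the difference between the tissue differences passed for 0 of 19938 genes (0.0%), with 1114 at an unadjusted p under 0.05 and a smallest adjusted p of 0.306. Without asymptomatic mice 1 and 6, 47 genes passed, and without FVB/N mouse 1, 2 or 3 the count was 45, 0 and 1. In FVB/N mice the median difference was 1.22 over neutrophil genes, 1.17 over B lineage genes, 0.80 over class II genes, -1.14 over pan-endothelial genes, -0.91 over matrix genes and -1.54 over stroma genes. In the same order, the medians in asymptomatic mice were 1.26, 0.98, 0.59, -1.61, -1.22 and -1.50. Other medians lay further apart. That of the immediate early genes was 1.93 in FVB/N mice against 0.62 in asymptomatic mice, that of the adipose genes -0.65 against -2.68 and that of the exocrine pancreas genes 0.19 against -1.45. S100a8 differed by 2.48 to 4.19 within the 3 FVB/N mice and by 1.39 to 4.22 within the 6 asymptomatic mice. Dcn differed by -6.76 to -4.0 in FVB/N and by -6.78 to -4.25 in asymptomatic mice. Those ranges overlap for both genes. Ccl3 had 2.33 to 4.70 in FVB/N mice and 1.19 to 3.16 in asymptomatic mice. With 3 FVB/N mice, all in batch A, and a median standard error of 0.203 for this comparison, a missing call does not show that the tissue differences were alike. The salivary list median was -1.80 in FVB/N and -0.40 in asymptomatic mice.

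Against Tg26 mice with lymphoma, B cell genes were less spleen-sided and stroma and vessel genes less node-sided than in asymptomatic mice. The difference between the tissue differences passed for 1179 genes (5.91%), below 0 for 803 and above 0 for 376. The count was 2475 without asymptomatic mouse 1 and 642, 430, 565 and 467 without mice 2, 3, 4 and 5, 56 within batch A and 0 with the neighbouring tissue lists as covariates. The spleen array of lymphoma mouse 4 has a disease status code that disagrees with its description, and it was kept as lymphoma. No fit left out a mouse with lymphoma, so how far the values rest on single ones was not tested. Both tissue comparisons use the asymptomatic arrays, so their values are given side by side. Genes named here were chosen partly for their tissue difference in asymptomatic mice, which favours ranges apart from those with lymphoma. How many of all genes have such ranges was not counted. Cd79b had a spleen minus node difference of 0.40 to 1.23 within the 6 asymptomatic mice and -0.21 to 0.10 within the 6 mice with lymphoma. These ranges did not overlap, and the states differed by 0.99 (SE 0.14, adjusted p = 0.00431). H2-Oa had 0.92 to 1.42 in asymptomatic mice and -0.24 to 0.41 with lymphoma, a difference of 1.06 (SE 0.16, adjusted p = 0.0045). The median over B lineage genes was 0.98 in asymptomatic mice and 0.0 with lymphoma, and 11 of 24 passed. Plac8 and Ccl3 also differed between states, by 1.54 and 1.95 (at most SE 0.41 and adjusted p = 0.0142).

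On the node side, Cd209b had -6.0 to -3.13 within asymptomatic mice and -3.06 to -0.13 within mice with lymphoma. The ranges did not overlap, though Cd209b was named for its difference in asymptomatic mice. The states differed by -3.58 (SE 0.60, adjusted p = 0.00647). Lyve1 differed by -3.03, Ccl19 by -3.03 and Siglec1 by -3.12 between the states (at most SE 0.56 and adjusted p = 0.00786). Of 27 pan-endothelial genes 21 passed, with medians of -1.61 in asymptomatic mice and -0.16 with lymphoma. Of 39 matrix genes 18 passed, with medians of -1.22 and -0.30. Of 30 neutrophil genes 0 passed (limma), with medians of 1.26 and 1.23. S100a8 had -1.63 to 5.67 within mice with lymphoma, and the states differed by 1.13 (SE 0.91, adjusted p = 0.469). Of 23 T lineage genes 0 passed, with medians of 0.14 and -0.34. The largest differences below 0 were in fat genes, Car3 at -5.11, Ucp1 at -4.63 and Fabp4 at -4.44 (at most SE 1.0 and adjusted p = 0.0158). The adipose list median was -2.68 in asymptomatic mice and 0.0 with lymphoma, and its part in the other values was not tested. The fit with covariates cannot tell that part from the tissue difference.

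**Figure D5:**
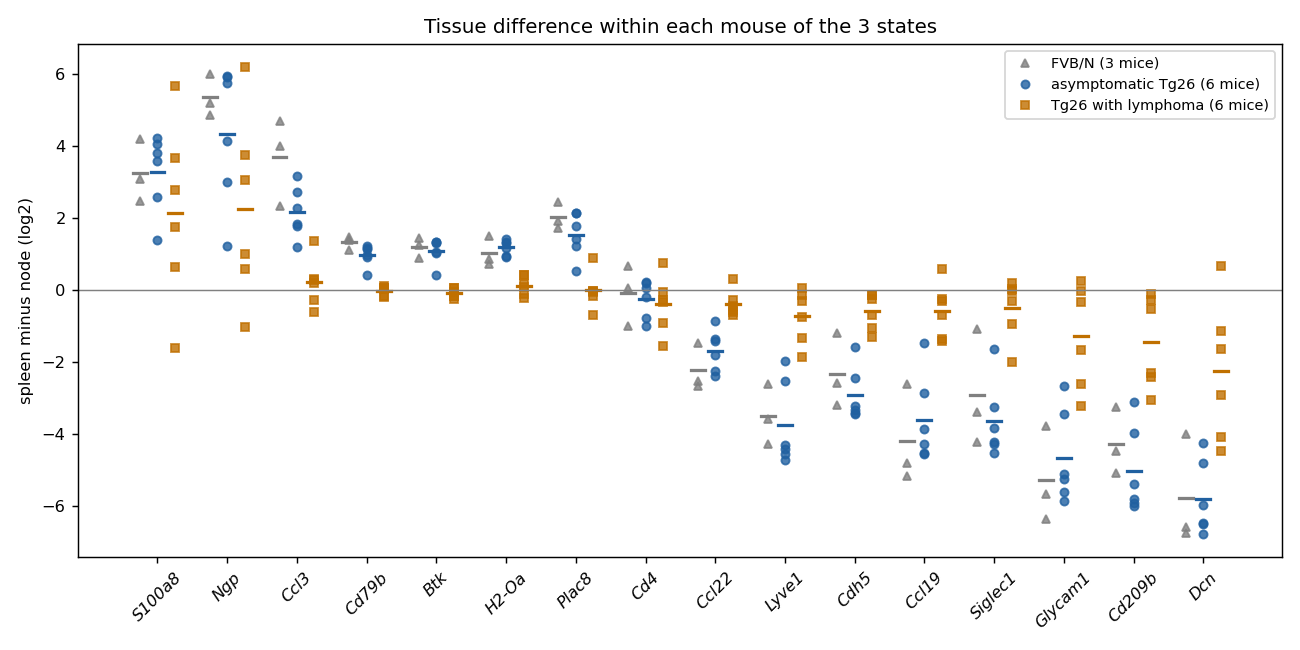
Spleen minus node (vertical axis, log2) within each mouse for 16 genes, in 3 FVB/N mice, 6 asymptomatic Tg26 mice and 6 Tg26 mice with lymphoma, with a bar at each mean. Cd79b, Btk and H2-Oa lie near 0 with lymphoma and above 0 in the other states, Cd209b, Lyve1 and Cdh5 lie closer to 0 with lymphoma, and S100a8 and Ngp spread widely with lymphoma.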

How the data were processed

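Total RNA of spleen and lymph node of 15 mice was measured on 30 arrays. The authors deposited log2 expression values per probe set, normalised with fRMA at the probe level per the series' design text, and array medians ran from 6.67 to 6.89. Array software versions are not given in the sources used here. fRMA brings arrays to a common distribution, which can hide a shift shared by most genes.

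Of 35557 probe sets, 21789 had 1 gene symbol and gave 19938 genes, with the probe set of the highest mean level taken for 999 genes with several. Symbols were updated through RefSeq by Entrez ID for 21698 probe sets. Tissue differences were fitted with limma 3.58.1 in R 4.3.3 (lmFit with mouse as a block, eBayes) over the 12 arrays, with Benjamini-Hochberg adjustment over all genes and a threshold of 0.05. Differences between states used an interaction in a fit of all 30 arrays. The scripts were tested on simulated data. Same-mouse arrays come from the same animal per the labels, and the correlation of their deviations from the group means was 0.137 to 0.503 in the 6 mice, or -0.0374 to 0.17 within batches.

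The members and the 36 gene lists (774 genes measured) were chosen with earlier results of these data known. Named genes are the 15 per direction with the largest smallest within-mouse difference among called genes of the same sign in all 6 mice, up to 4 members per list with the smallest adjusted p, the 5 largest interactions per direction and members that describe lists without a shift. Other members named, such as Cd22, Cr2, Prox1, Flt4, Tlx1, Tcf21 and H2-Aa, were chosen after their values were seen. Alternatives were the block, the arrays fitted, surrogate variables, neighbouring tissue covariates, subsets of mice, batches, a level filter, the probe set choice, centring and the variance model.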

Additional observations from a re-analysis of the deposited data

Results flagged for a closer look

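Single arrays lay apart from the other 5 of their tissue in 58 of 464 groups of 6 levels examined. Chance puts about 1 in 20 independent groups apart, but these genes and lists overlap and some genes were chosen after their values were seen, so the count is not read against that share. Values are log2 levels, set against the range of the other 5 mice. The node array of mouse 6 was the highest node for Car1 (11.14 against 5.63 to 7.48), Alas2 (11.48 against 6.64 to 8.10), Tubb1 (9.30 against 7.0 to 7.63), Plac8 (10.11 against 8.39 to 8.82), Fcrl5 (8.99 against 6.26 to 6.85), Btk (9.69 against 8.51 to 8.95) and Tnfrsf13b (9.56 against 8.69 to 8.97). Further genes of that array on the same side were Itga4 (10.93 against 9.58 to 10.08), Clec4a4 (5.75 against 3.69 to 4.35), Ceacam2 (8.59 against 6.01 to 6.31), Tlx1 (8.21 against 6.04 to 6.42), Tcf21 (8.58 against 5.24 to 5.91), Hmox1 (11.25 against 7.72 to 8.80) and Slc4a1 (11.58 against 6.18 to 7.43). Further genes of that array on the same side were Rhag (8.91 against 4.34 to 4.78), Klf1 (7.25 against 5.87 to 6.33) and Cr2 (11.53 against 9.65 to 9.81). Of the gene lists, the mean level was also the highest there for the erythroid list (8.94 against 6.61 to 6.87), marginal zone and B-1 B cell list (9.08 against 8.50 to 8.69) and follicular B lineage list (10.62 against 9.62 to 9.93). It was the lowest node for Igfbp4 (9.71 against 10.44 to 10.75). Of the gene lists, the mean level was also the lowest there for the regulatory and follicular helper T cell list (7.46 against 7.86 to 8.01).

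The node array of mouse 1 was the lowest node for Cxcl13 (10.60 against 11.92 to 12.23), Sparc (9.56 against 11.41 to 11.83), Mfge8 (10.04 against 11.07 to 11.59), Igfbp7 (9.97 against 12.03 to 12.47), Bgn (8.38 against 10.58 to 11.25), Mmrn1 (6.10 against 7.65 to 8.57) and C1s1 (5.44 against 8.16 to 9.40). Further genes of that array on the same side were Clu (9.23 against 10.85 to 11.74), Myh11 (6.78 against 7.99 to 8.63), C1qa (7.79 against 9.88 to 10.30), C1qb (8.29 against 9.81 to 10.62), C1qc (7.52 against 9.86 to 10.19), Flt4 (6.44 against 7.69 to 8.06) and Cd68 (8.47 against 9.87 to 10.60). Further genes of that array on the same side were Csf1r (7.66 against 10.63 to 10.93). Of the gene lists, the mean level was also the lowest there for the red pulp macrophage and iron recycling list (7.75 against 9.17 to 9.75), marginal zone and sinus macrophage receptors list (7.46 against 8.98 to 9.69), smooth muscle and contractile list (6.73 against 7.43 to 7.68), dendritic cell list (7.73 against 8.28 to 8.56), monocyte list (7.60 against 8.22 to 8.57) and complement list (7.17 against 8.32 to 8.90). It was the highest node for Fcmr (10.87 against 9.84 to 10.19), H2-DMa (10.44 against 9.40 to 9.73) and Cdt1 (9.03 against 8.03 to 8.29).

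The spleen of mouse 6 was the highest for Mfge8 (8.12 against 7.84 to 7.93), was the lowest for Cd34 (5.92 against 6.58 to 6.67) and was the lowest for the red pulp macrophage and iron recycling list (8.60 against 8.80 to 8.90). The spleen of mouse 4 was the highest for Serping1 (6.41 against 6.05 to 6.15) and was the lowest for Cdt1 (8.30 against 8.81 to 9.07), Ceacam2 (7.94 against 8.71 to 8.89) and Ms4a1 (11.93 against 12.14 to 12.23). The node of mouse 5 was the highest for Gcsam (7.85 against 7.16 to 7.39) and was the lowest for H2-Ea (8.75 against 11.32 to 12.03). The spleen of mouse 1 was the highest for H2-DMa (11.01 against 10.18 to 10.45). The spleen of mouse 5 was the lowest for H2-Ea (10.30 against 12.21 to 12.43) and was the lowest for the skeletal muscle list (6.20 against 6.35 to 6.42). The causes of these values were not tested.

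The tissue difference of 1179 genes differed between asymptomatic mice and mice with lymphoma (limma, interaction of tissue and state, adjusted p under 0.05). Of these, 35 are given here, taken from the 15 genes per direction with the largest smallest within-mouse difference, the 5 largest interactions per direction and further list members chosen after their values were seen. Values are the asymptomatic minus the lymphoma difference on the log2 scale. Above 0 were Ccl3 (1.95), H2-Oa (1.06), Plac8 (1.54), Btk (1.17), Cd79b (0.99), Tnfrsf13b (1.04), Ceacam2 (2.14), Cdh17 (2.06), Trem1 (2.0), Siglecg (1.64) and Cd79a (1.05). Below 0 were the metabolic genes Car3 (-5.11), Fabp4 (-4.44), Ucp1 (-4.63), Pdk4 (-4.34) and Gpd1 (-4.05), which fat expresses. Among genes of stroma, vessels and myeloid cells, the values were Dcn (-3.53), Cd209b (-3.58), Glycam1 (-3.38), Sparc (-2.31), Dpt (-2.88), Mfge8 (-2.71), Dab2 (-2.54), Serping1 (-2.41), Tm4sf1 (-2.29) and Pmp22 (-2.12). They were Lyve1 (-3.03), Fstl1 (-2.60), Igfbp7 (-2.41), Siglec1 (-3.12), Marco (-2.98), Cdh5 (-2.31), Ccl22 (-1.30), Cfb (-2.82) and Ccl19 (-3.03) for the remaining genes. None of the 35 passed in the fit with neighbouring tissue lists as covariates, in which 0 of 19938 genes passed (limma). Car3, Fabp4 and Ucp1 belong to the adipose list, whose mean is a covariate of that fit, so the loss of their calls is not informative. The adipose mean was also lower in every asymptomatic spleen than in any asymptomatic node, so that fit cannot tell fat apart from tissue.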

How the results depend on the processing

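Of 3080 genes called in the paired limma fit, 1379 were higher in spleen, 1701 higher in node and 915 differed by at least 1 on the log2 scale. With no replicate block and batch as a term, 3486 genes were called, and 3583 with the mouse as a random block, and 2909 and 2940 of the 3080 were called again. All 30 arrays with a fixed block gave 3953, trended robust variances 2925 and the mean of probe sets 3081. With surrogate variables 1120, 450, 670 and 379 genes passed, in the order above, and 2747 of the 3080 kept their sign. All 30 arrays with a random block, added after seeing the data, gave 3978, 1947, 2031 and 946, and the same fit with neighbouring tissue lists as covariates 213, 87, 126 and 124. Batch A alone gave 553, 338, 215 and 412 and batch B alone 1299, 201 and 1098. Without mice 2 and 3 the counts were 322, 85, 237 and 251, without mice 4 and 5 they were 368, 114, 254 and 278, and without mice 5 and 6 they were 1626, 677 and 949. Without mice 1 and 6, a setting chosen after seeing the data, they were 5236, 2610, 2626 and 1431. Centring gave 5810 calls, 4261 of them higher in spleen, and genes at or above the median level gave 816 higher in node and 472 of at least 1. Leaving out 1 mouse gave 1460 to 4402 calls, 513 to 2191 higher in spleen, 947 to 2211 higher in node and 674 to 1175 of at least 1.

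Against FVB/N the count was 0 (limma, with 1114 at an unadjusted p under 0.05), also without any 1 asymptomatic mouse, 0 to 45 without 1 FVB/N mouse, which was added after seeing the data, and 47 without asymptomatic mice 1 and 6. Against lymphoma it was 1179, 795 with no replicate block, 430 to 2475 without 1 asymptomatic mouse, 2906 without mice 1 and 6, 56 in batch A, 580 for genes at or above the median level, 2095 after centring and 0 with neighbouring tissue covariates.

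Sign changes were counted only where the gene was called in the main fit, the other fit or both. With surrogate variables the sign turned for Gpr183 (-0.29), Cd2 (-0.33), Bub1b (0.11), Ehf (0.46), Cd3e (-1.07, adjusted p = 0.0445, limma), H2-Ea (-0.26) and Nkg7 (-0.48). With neighbouring tissue covariates it turned for Gpr183 (-0.13), Ehf (0.29), Gpd1 (0.15) and H2-Ea (-0.16). The causes were not tested. Of the other values of single genes under all settings, 3739 kept their side of the threshold, 564 lost and 70 gained a call. The 3739 include any sign change of a gene called in neither fit. The number of mice and arrays limits the precision, and with 5 residual degrees of freedom a missing call does not show equal levels.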

Other observations

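H2-Ea, the alpha chain of the class II molecule I-E, was low in both tissues of mouse 5. Its log2 level was 10.30 in that spleen against 12.21 to 12.43 in the other spleens, and 8.75 in that node against 11.32 to 12.03 in the other nodes. The mean of the 14 class II pathway genes, H2-Ea included, in mouse 5 was 10.63 in spleen against 10.76 to 10.95 and 9.99 in node against 10.13 to 10.62.

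Some genes higher in spleen had levels in the spleens that differed between batches. The chemokine gene Ccl3 had log2 levels of 10.48, 10.25 and 10.42 in batch A spleens and 8.25, 8.22 and 8.28 in batch B spleens. Fos had 11.45, 11.52 and 11.55 in batch A and 9.30, 9.47 and 9.86 in batch B. The difference between tissues for Ccl3 was 2.72 within batch A and 1.60 within batch B, and for Fos it was 1.39 and 2.0. These genes were chosen after their values were seen, and the cause was not tested.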
